A study of Mus musculus with 12 samples.

Results

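Bone matrix genes encode the proteins that osteoblasts and osteocytes lay down and mineralise, and 9 of them were followed in the chromatin of mouse mesenchymal stem cells (MSCs), the stromal cells from which osteoblasts arise. The members were Col1a1 and Col1a2, the chains of collagen type I, Sparc, Ibsp, Spp1, Dmp1 and Mepe, which encode non-collagenous glycoproteins, and the osteocalcin genes Bglap and Bglap2. CUT&RUN, in which an antibody tethers a nuclease to a histone mark so that the DNA around it is released and sequenced, had been carried out for H3K27ac and for H3K27me3. MSCs came from young mice aged 3 to 5 months or old mice aged 18 to 22 months, all were cultured at 2% O2, and each mark and age had 3 libraries, 12 in all. Strain, sex and the number of animals behind a library were not given in the labels, and cells grown in culture need not carry the chromatin they had in the animal. A region counted as a member when it overlapped the GENCODE gene body of one of these genes or the 50 kb on either side of it. This gave 39 of the 59664 regions in the tables, 28 for H3K27ac and 11 for H3K27me3. All coordinates are mm10 (GRCm38).

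H3K27ac marks active promoters and enhancers, whereas H3K27me3 is laid down by Polycomb repressive complex 2 over genes that are kept silent, and a single lysine cannot carry both. Osteoblasts deposit collagen type I first, and the acidic SIBLING proteins (small integrin-binding ligand, N-linked glycoproteins) encoded by Dmp1, Ibsp, Mepe and Spp1 in a row on chromosome 5 appear as the matrix mineralises. RUNX2, the master transcription factor of osteoblasts, binds the core letters ACCACA, and many tissue-specific promoters also hold a CCAAT box.

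Promoters are shown for the genes whose start sites fell into different chromatin states, so that the sequence can be read beside the marks. RefSeq promoter windows (GRCm38.p6) matched 7 of the 9 members, with 9 windows, and not Col1a1 or Bglap2. Of the paired windows of Dmp1 and Spp1, the one nearest the GENCODE gene start is shown, and Sparc is not shown because 238 of its 250 bases lie inside a GENCODE exon. The bases run 5′ to 3′ on the transcribed strand up to 250 bases before the RefSeq start, bases inside a GENCODE exon are left out, and capitals mark ACCACA or CCAAT on either strand. Spp1 is under H3K27ac (chr5:104434861-104435110, plus strand), as is Col1a2 (chr6:4505368-4505492, plus strand). Dmp1 (chr5:104202367-104202612, plus strand), Ibsp (chr5:104299037-104299170, plus strand) and Mepe (chr5:104325079-104325328, plus strand) are under H3K27me3, and Bglap (chr3:88384467-88384716, minus strand) is under neither.
Spp1: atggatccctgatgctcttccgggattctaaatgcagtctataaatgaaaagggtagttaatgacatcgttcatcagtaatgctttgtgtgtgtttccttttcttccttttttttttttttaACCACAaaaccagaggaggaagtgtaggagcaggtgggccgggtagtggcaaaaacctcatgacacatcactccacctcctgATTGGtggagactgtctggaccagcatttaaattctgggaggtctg
Col1a2: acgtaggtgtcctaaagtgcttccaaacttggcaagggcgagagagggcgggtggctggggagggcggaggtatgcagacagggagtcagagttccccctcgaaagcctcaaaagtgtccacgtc
Dmp1: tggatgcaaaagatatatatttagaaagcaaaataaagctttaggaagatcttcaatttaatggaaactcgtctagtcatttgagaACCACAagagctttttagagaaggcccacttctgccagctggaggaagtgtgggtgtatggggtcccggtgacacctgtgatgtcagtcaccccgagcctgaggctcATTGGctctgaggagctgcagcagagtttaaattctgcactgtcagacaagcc
Ibsp: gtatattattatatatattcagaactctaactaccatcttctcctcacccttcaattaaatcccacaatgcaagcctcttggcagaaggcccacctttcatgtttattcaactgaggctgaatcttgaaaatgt
Mepe: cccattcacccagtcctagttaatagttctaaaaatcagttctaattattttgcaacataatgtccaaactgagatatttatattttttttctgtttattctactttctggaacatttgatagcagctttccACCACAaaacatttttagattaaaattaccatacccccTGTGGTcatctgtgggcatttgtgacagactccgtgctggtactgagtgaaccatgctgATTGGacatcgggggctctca
Bglap: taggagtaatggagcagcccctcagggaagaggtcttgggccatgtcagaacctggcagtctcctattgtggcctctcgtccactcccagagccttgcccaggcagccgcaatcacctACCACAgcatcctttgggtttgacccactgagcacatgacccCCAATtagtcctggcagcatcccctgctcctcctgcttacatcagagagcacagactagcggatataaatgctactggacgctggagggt

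Across the full 250 bases, ACCACA was found once in these windows of Spp1, Dmp1 and Bglap and at 2 places in Mepe, but not in Ibsp or Col1a2, against 14% of the 32851 promoter windows of the same length in the table. CCAAT, which shared no base with ACCACA here, was found once in each of the 6 promoters shown, against 33.8% of all windows. The other Dmp1 window held CCAAT and no ACCACA, and the other Spp1 window and that of Sparc held neither. In Ibsp and Col1a2 it lay in the part annotated as exon by GENCODE, so it is not seen in the letters above. Spp1 and Mepe both held ACCACA and CCAAT, under opposite marks. CpG dinucleotides numbered 3 in Spp1, 3 in Dmp1, 2 in Ibsp, 2 in Mepe and 4 in Bglap, below the median of 6 over all windows, and 11 in Col1a2.

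Start sites of the 9 genes fell into 3 states. Col1a1, Col1a2, Sparc and Spp1 lay under an H3K27ac region and no H3K27me3 region, a state held by 46.9% of 21938 protein-coding genes. Dmp1, Ibsp and Mepe lay under H3K27me3 alone, as did 25.3% of genes. Bglap and Bglap2 lay under neither mark, as did 24.6%, and no member lay under both, a state of 3.16% of genes. Thus 3 of the 4 SIBLING genes among the members were in the Polycomb state and the other, Spp1, was in the active state. In the same tables, the start sites of 6 of 6 MSC markers (Pdgfra, Ly6a, Pdgfrb, Thy1, Eng and Nt5e) lay under H3K27ac, against 0 of 5 blood, 0 of 4 endothelial and 0 of 3 skeletal muscle markers. H3K27me3 lay over the starts of 1, 1, 3 and 3 of these lists in turn, the MSC marker being Nt5e, which had both marks.

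The extent of the marks followed the same split. The bodies of Col1a1, Col1a2, Sparc and Spp1 lay 100% inside H3K27ac regions, and that of Ibsp lay 100% inside an H3K27me3 region. H3K27me3 covered 51.2% of Dmp1 and 66.1% of Mepe, where H3K27ac covered a further 30.5% and 22.6%. With the flanks included, H3K27ac covered from 11.2% of the Dmp1 window to 78.8% of the Spp1 window, and H3K27me3 from 3.47% of the Bglap window to 63.7% of the Ibsp window. Every member had at least 2 H3K27ac regions in its window, whereas Col1a1, Spp1 and Bglap2 had no H3K27me3 region, and the nearest one lay 73.2, 92.1 and 50.3 kb from the gene.

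**Figure D1:**
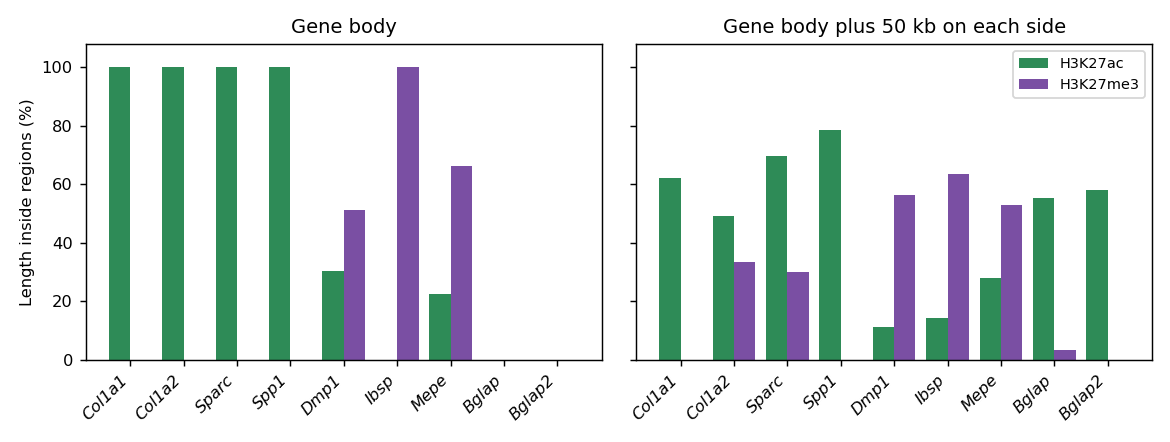
Share of each gene body (left) and of each gene body with 50 kb on either side (right) that lay inside H3K27ac (green) or H3K27me3 (purple) regions, in percent. H3K27ac covered 100% of 4 bodies and H3K27me3 100% of Ibsp, and the osteocalcin gene bodies held no region of either mark.

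Signal is given as the deposited value of a region after scaling between libraries (scaled signal), where a larger region collects more signal, and levels of different regions are compared only as scaled signal per kb. The libraries held 2750953 to 5541429 reads for H3K27ac and 3622108 to 9947515 for H3K27me3, totals that rest on an assumed divisor of 0.5 kb. Old replicate 2 was the shallowest of both marks. Nothing in the labels says whether libraries of a group came from separate animals, so p-values measure the spread between these libraries, which may be partly technical.

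The collagen and Sparc genes lay in long, strongly acetylated regions. The Col1a1 region (chr11:94910501-94962500, 52 kb) covered every annotated exon and had an H3K27ac signal of 169, 189 and 169 in the young libraries and 178, 202 and 212 in the old. Old libraries reached higher, but the lowest of them fell inside the young range. The means were 175 ± 11.6 and 197 ± 17.4 (SD, n = 3), a log2 fold change of 0.17 ± 0.08 (SE) for old over young that did not pass the test (limma adjusted p = 0.501), and of 0.05 on the signal as deposited. Col1a2 encodes the partner chain, and its region (chr6:4500001-4546000, 46 kb) had 179, 168 and 190.4 in young and 179, 177 and 203 in old libraries. These groups overlapped, and the log2 fold change was 0.05 ± 0.08 (limma adjusted p = 0.877).

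Sparc encodes osteonectin, a glycoprotein that binds collagen and calcium. Its region (chr11:55386501-55462500, 76 kb) was the longest of the 39, reached over the start of the neighbouring Atox1, and had 316, 308 and 328 in young against 274, 287 and 290.5 in old libraries. Every old value was under every young one, as in 7.42% of all 31617 H3K27ac regions. The means were 317 ± 9.77 and 284 ± 8.56 (SD, n = 3), a log2 fold change of −0.16 ± 0.06 that did not pass the test (limma adjusted p = 0.393). It stayed between −0.18 and −0.14 when any library was left out. Per kb, the Col1a1, Col1a2 and Sparc regions held 3.58, 3.98 and 3.96 of scaled signal, above 96.5%, 98.5% and 98.4% of all H3K27ac regions. Over the 6 libraries, the start-site regions whose H3K27ac signal ran most like that of Sparc belonged to R3hcc1l (Pearson r = 0.987), and to Kif9 and Klhl18, which share a region (r = 0.986), out of 10985 genes compared, a ranking of that many genes on 6 points.

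Upstream of Col1a2, a gene known to have a far-upstream enhancer, H3K27ac was denser still. The region from 9.81 kb before the gene outwards (chr6:4481501-4495000, 13.5 kb) held 4.52 per kb, above 99.6% of regions. Its signal was 75.8, 64.6 and 59.5 in young and 60.2, 42.5 and 63.2 in old libraries. Old replicate 2 was the lowest, the other old libraries fell inside the young range, and the log2 fold change of −0.28 ± 0.13 (limma adjusted p = 0.501) became −0.10 without that library. A smaller region 45.3 kb upstream (chr6:4454501-4459500, 5.0 kb) held 4.84 per kb, the highest of the 39. An H3K27me3 region of 54 kb (chr6:4546001-4600000) began 4.46 kb past the end of Col1a2, with 0 bp between it and the end of the H3K27ac region at the 500 bp steps of the region edges. Its signal was 133 ± 9.58 in young and 134 ± 10.7 in old libraries (SD, n = 3), a log2 fold change of 0.01 ± 0.09 (limma adjusted p = 0.971), so the edge of the marks was flanked by regions that did not pass the test on either side.

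**Figure D2:**
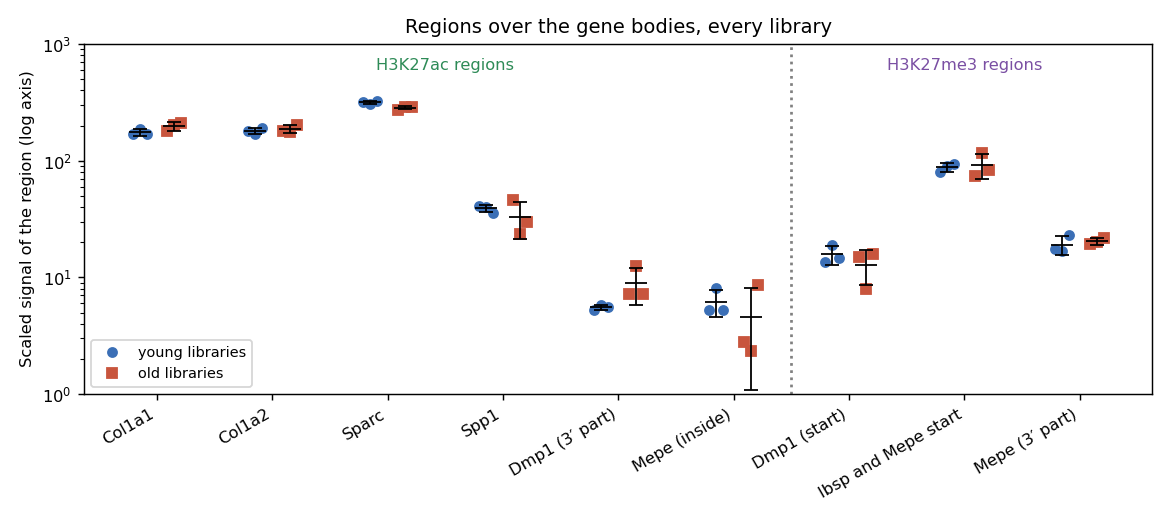
Scaled signal of the 9 regions that overlap a member's body (log axis), with each young (blue circles) and old (red squares) library and the mean ± SD of 3 libraries in black. The 3 old Sparc values lie below the 3 young ones, the 3 old Dmp1 H3K27ac values lie above the young ones, and the groups overlap in the other 7 regions.

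The SIBLING members on chromosome 5 differed in the mark over their start sites. H3K27me3 regions ran from upstream of Dmp1 to 4.39 kb past the end of Mepe (position 104343000), with short H3K27ac regions among them. The H3K27ac region 24.9 kb downstream of Dmp1 (3.0 kb) held 3.23 per kb, above 92.5% of H3K27ac regions. An H3K27ac region of 1.0 kb, with 1 to 9 reads a library, began 1.5 kb past that position. The 92.1 kb from that position to the start of Spp1 held H3K27ac regions alone. Spp1 encodes osteopontin, which is made by many cell types besides bone cells. Its region (chr5:104423501-104445000, 21.5 kb) had 41.2, 39.8 and 35.8 in young and 45.8, 23.6 and 29.6 in old libraries. The old libraries spread around the young ones, and the log2 fold change of −0.29 ± 0.17 (limma adjusted p = 0.630) became −0.08 without old replicate 2 and −0.55 without old replicate 1. At 1.67 per kb it exceeded only 13.2% of H3K27ac regions, so that Spp1 was acetylated over its whole length but at less than the density of the collagen genes.

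Ahead of Spp1, a 39.5 kb region (chr5:104370501-104410000) between Mepe and Spp1 had a mean H3K27ac signal of 99.9 ± 12.2 in young and 85.9 ± 9.20 in old libraries (SD, n = 3). Its log2 fold change was −0.21 ± 0.11 (limma adjusted p = 0.522), with overlap between the groups, and −0.13 without young replicate 1. All 5 regions of the Spp1 window had lower fitted values in old libraries, as had 50.4% of all H3K27ac regions. Their log2 fold changes ran from −0.29 to −0.09, and none passed the test.

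Ibsp encodes bone sialoprotein, which nucleates mineral. One H3K27me3 region (chr5:104284501-104327500, 43 kb) covered the whole gene and ran on over the start of Mepe. It had 79.4, 90.7 and 94.2 in young and 74.4, 117 and 83.1 in old libraries. Old replicate 2 was the highest, and the log2 fold change of 0.03 ± 0.13 (limma adjusted p = 0.949) turned to −0.16 without it. Mepe encodes a phosphoglycoprotein of osteocytes, and a further H3K27me3 region over its 3′ part (chr5:104332001-104343000, 11 kb) had 19.1 ± 3.42 in young and 20.3 ± 1.38 in old libraries (SD, n = 3), a log2 fold change of 0.10 ± 0.16 (limma adjusted p = 0.832) that ranged from 0.012 to 0.24 with a library left out.

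Between these, a 3.0 kb H3K27ac region (chr5:104327001-104330000) lay inside Mepe and overlapped an exon. It held only 3 to 17 reads a library, with a signal of 5.23, 8.08 and 5.26 in young and 2.79, 2.36 and 8.66 in old libraries. The old values lay on both sides of the young ones, and the log2 fold change of −0.57 ± 0.39 (limma adjusted p = 0.684) ranged from −1.10 without old replicate 3 to −0.26 without old replicate 2.

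Dmp1 encodes an acidic phosphoprotein of osteocytes and dentin, and both marks met inside it. H3K27me3 covered its start and overlapped 3 of 6 exons (chr5:104197001-104208500, 11.5 kb), and H3K27ac began at the next base and overlapped the other 3 (chr5:104208501-104212000, 3.5 kb). Region edges fell on steps of 500 bp, so the place where the marks met was not resolved below that. The H3K27me3 region had 13.4, 19.1 and 14.7 in young and 14.8, 7.96 and 15.8 in old libraries. Only old replicate 2 stood below the young range, and the log2 fold change of −0.32 ± 0.22 (limma adjusted p = 0.556) became −0.02 without it. The H3K27ac region had 5.23, 5.77 and 5.59 in young and 7.17, 12.6 and 7.13 in old libraries, from 10 to 18 reads each. All old libraries lay above all young libraries, as in 7.09% of H3K27ac regions, and old replicate 2 was the highest. The log2 fold change was 0.60 ± 0.30 (limma adjusted p = 0.527), and 0.35 without old replicate 2. The libraries numbered old replicate 2 thus held the highest H3K27ac and the lowest H3K27me3 signal at Dmp1. Each was the shallowest of its mark, and the part of depth in this was not tested. The labels do not state that these libraries came from the same sample.

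Around Dmp1, fitted values in the flanks were mostly lower in old libraries. An H3K27ac region 14.1 kb upstream (chr5:104186001-104188500, 2.5 kb) had 11.4, 8.66 and 7.24 in young and 6.38, 3.15 and 8.15 in old libraries, a log2 fold change of −0.65 ± 0.32 (limma adjusted p = 0.513) and of −0.29 without old replicate 2. Upstream of it, a 44 kb H3K27me3 region over the start of Dspp (chr5:104140501-104184500), a SIBLING gene of dentin, had 96.8 ± 3.83 in young and 87.2 ± 7.68 in old libraries (SD, n = 3). The old libraries lay below the young ones, as in 10.6% of all 28047 H3K27me3 regions, with a log2 fold change of −0.15 ± 0.10 (limma adjusted p = 0.513) and of −0.08 without old replicate 3. Downstream, an H3K27me3 region (chr5:104221001-104235000, 14 kb) had 21.5 ± 0.945 and 17.8 ± 2.48 (SD, n = 3), with a log2 fold change of −0.28 ± 0.15 (limma adjusted p = 0.438).

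**Figure D3:**
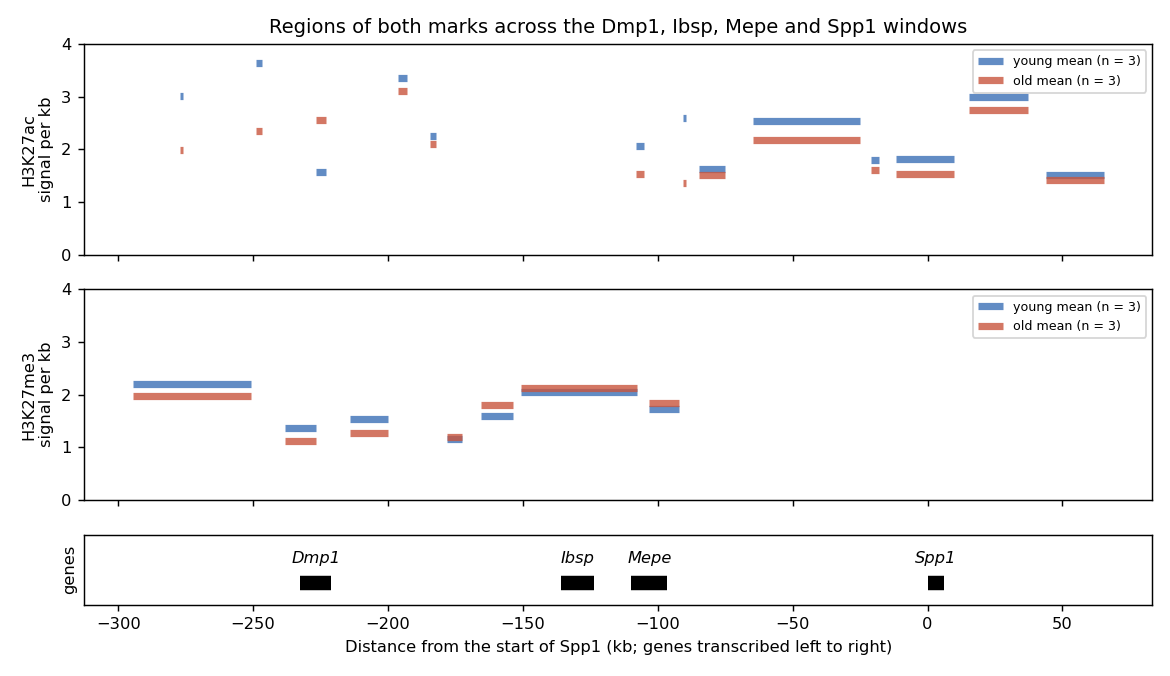
Mean scaled signal per kb of every H3K27ac region (top) and H3K27me3 region (middle) of the SIBLING windows, in young (blue) and old (red) libraries, against distance from the start of Spp1 in kb, with the 4 genes below. H3K27me3 regions cover Ibsp and parts of Dmp1 and Mepe, and the 92.1 kb before Spp1 hold H3K27ac regions alone.

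The osteocalcin genes Bglap and Bglap2, markers of mature osteoblasts, are nearly identical neighbours, so reads from them may not be placed on one copy with certainty. Neither body held a region, and the nearest H3K27ac region lay 17.5 kb from Bglap and 12.2 kb from Bglap2. All regions of H3K27ac in their windows lay over the starts of other genes. The one on the Bglap side (chr3:88402001-88426500, 24.5 kb, over Pmf1 and Slc25a44) had 48.0, 52.5 and 47.4 in young and 55.8, 57.4 and 59.6 in old libraries. Old libraries lay above young ones without overlap, as in 7.09% of H3K27ac regions, and the log2 fold change of 0.22 ± 0.12 did not pass the test (limma adjusted p = 0.568). The region on the other side (chr3:88334001-88365500, over Paqr6, Smg5 and Tmem79) had 63.6 ± 4.87 and 59.0 ± 8.25 (SD, n = 3), a log2 fold change of −0.12 ± 0.12 (limma adjusted p = 0.817). The only H3K27me3 region of the pair, 44.5 kb upstream of Bglap (chr3:88429001-88432500), had 7.27 ± 0.194 and 7.14 ± 1.21 (SD, n = 3) and a log2 fold change of −0.04 ± 0.22 (limma adjusted p = 0.963).

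The flanks of Sparc and Col1a1 also held regions that belong to neighbours. The H3K27me3 region over the start of Fat2, 37.0 kb downstream of Sparc (chr11:55304001-55357500, 53.5 kb), had 147, 144 and 149 in young and 128, 138 and 126 in old libraries. The groups did not overlap, as in 10.6% of H3K27me3 regions in that direction, and the log2 fold change was −0.16 ± 0.09 (limma adjusted p = 0.412). The H3K27ac regions over G3bp1 upstream of Sparc and over Ppp1r9b and Samd14 downstream of Col1a1 had log2 fold changes of 0.06 ± 0.10 and 0.11 ± 0.11 (limma adjusted p = 0.889 and 0.808). With a library left out they ranged from 0.0047 to 0.16, the lowest without old replicate 1, and from 0.00068 to 0.19, the lowest without old replicate 2.

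Over all member regions, 0 of 28 H3K27ac regions passed an adjusted p of 0.05, against 0.0822% of all regions, and 4 had an unadjusted p under 0.05, against 9.6%. These 4 were the body regions of Sparc and Col1a1 and the regions 9.81 kb upstream of Col1a2 and 14.1 kb upstream of Dmp1. Old libraries had the lower fitted value in 21 of the 28, against 50.4% of all H3K27ac regions, with a median log2 fold change of −0.12 beside −0.003 over all regions. The lower values lay mostly in the flanks, with 18 of 22 regions outside the gene bodies (median −0.12) and 3 of 6 over them (median −0.05). All H3K27ac regions of the SIBLING windows except that inside Dmp1 were lower, whereas flank regions of the other loci went in both directions. Neighbouring regions of a locus need not be independent, so the flank count was partly a count of the SIBLING locus. Groups did not overlap in 5 of the 28, of which 3 were lower and 2 higher in old libraries, against 14.5% of all regions. The 3 lower ones were the Sparc body region and a pair of short regions 38.2 and 43.7 kb upstream of Col1a1, with log2 fold changes of −0.61 ± 0.33 and −0.52 ± 0.39 (limma adjusted p = 0.566 and 0.714) on 5 to 23 reads a library. For H3K27me3, 0 of 11 passed, against 0.488%, 0 had an unadjusted p under 0.05, against 13.9%, and the median was 0.01 beside −0.008. Groups did not overlap in 2 of the 11, both lower in old libraries, against 19.1% of all regions. By edgeR on the recovered reads and by DESeq2, 0 member regions of either mark passed as well. DESeq2 gave no adjusted p for some H3K27me3 regions, among them those over the Dmp1 start, downstream of Dmp1 and over the Mepe 3′ part, so these could not pass. By DESeq2, 0 of the 11 had an unadjusted p under 0.05.

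**Figure D4:**
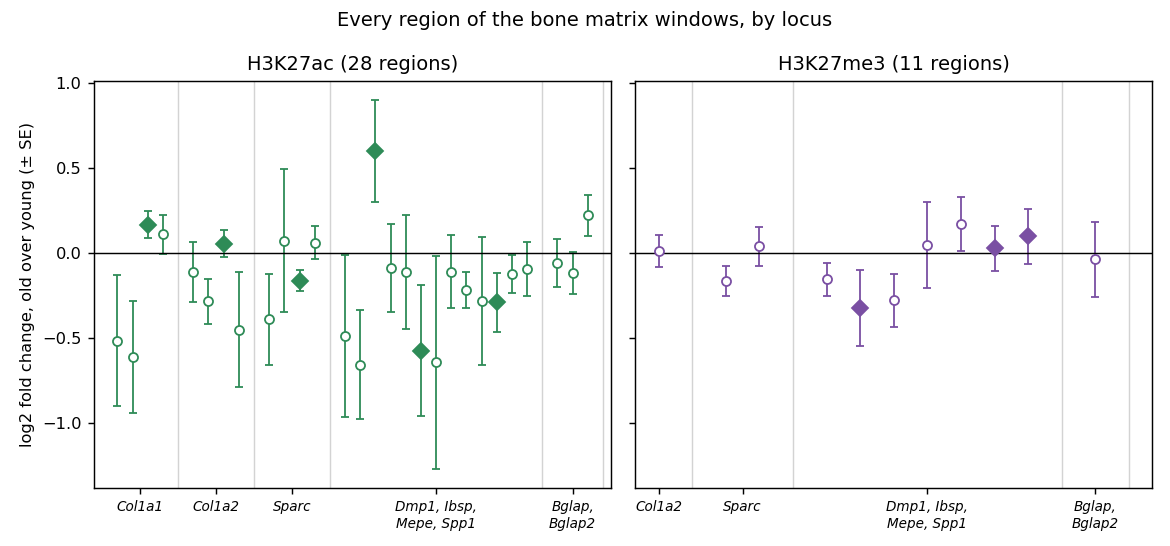
log2 fold change of old over young libraries with its standard error for the 28 H3K27ac (left) and 11 H3K27me3 (right) regions, in genomic order within each locus, where filled diamonds overlap a member's body. The H3K27ac values lie between −0.65 and 0.60, those of H3K27me3 between −0.32 and 0.17.

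A window sum took the full signal of every region that touched the window, also the part beyond it. By these sums, none of the 9 genes passed for H3K27ac, against 0.684% of 17248 protein-coding gene windows. None of 6 passed for H3K27me3, against 0.436% of 17445 (0 of 6 at an unadjusted p under 0.05, against 14.4%). The H3K27ac sum had an unadjusted p under 0.05 in 2 of the 9, against 12.1%, namely Spp1, from 243 ± 18.6 to 215 ± 23.3 (log2 fold change −0.18 ± 0.08, limma adjusted p = 0.311), and Mepe, from 124 ± 7.98 to 106 ± 11.3 (−0.23 ± 0.09, adjusted p = 0.293, SD, n = 3). These windows share the 39.5 kb region ahead of Spp1 and are not independent. The Col1a1 window had 256 ± 14.3 and 280.3 ± 21.1 (SD, n = 3, log2 fold change 0.13 ± 0.07, limma adjusted p = 0.484). For H3K27me3, the Dmp1 window had 140.3 ± 4.78 and 125 ± 8.21 (SD, n = 3), without overlap between the groups, as in 13% of windows in that direction (−0.17 ± 0.08, limma adjusted p = 0.349). The Sparc H3K27me3 window was also lower in old libraries without overlap, at 191 ± 0.975 and 177 ± 8.34 (−0.11 ± 0.08, limma adjusted p = 0.509). Most of this sum came from the Fat2 region, which lies partly beyond the window. With signal weighted by overlap with the window, the log2 fold change was −0.046 (limma adjusted p = 0.839). The H3K27me3 region 6.50 kb downstream of Sparc had 0.04 ± 0.11 (limma adjusted p = 0.910). The H3K27ac sum of Sparc had 432 ± 3.41 and 401 ± 7.35 (SD, n = 3, −0.11 ± 0.06, limma adjusted p = 0.485), also without overlap between the groups. The share of all H3K27ac windows without overlap is not given here.

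The balance of the marks was taken as the log2 ratio of the H3K27ac to the H3K27me3 sum in the 6 windows that had both, as a description without a test. Libraries of both marks with the same sample number were set against each other, a match that the labels do not state and that the per-sample ratios, their SDs and their overlap rest on. The tables were normalised apart, so a ratio of 0 does not mean equal amounts of the marks. Young and old means were 3.87 ± 0.04 and 3.95 ± 0.33 for Bglap, 1.17 ± 0.02 and 1.18 ± 0.04 for Sparc, and 1.06 ± 0.14 and 1.00 ± 0.24 for Col1a2 (SD, n = 3). They were −0.02 ± 0.22 and −0.32 ± 0.38 for Mepe, −2.06 ± 0.04 and −1.97 ± 0.15 for Dmp1, and −2.15 ± 0.30 and −2.42 ± 0.38 for Ibsp. The Bglap ratio sets 2 H3K27ac regions over the starts of other genes against 1 H3K27me3 region of 3.5 kb, none of them over Bglap. Most of the Mepe H3K27ac sum came from the 39.5 kb region ahead of Spp1, 99.9 of 124 in young and 85.9 of 106 in old libraries. Likewise, the Fat2 region, which lies partly beyond the window, gave 146 of 191 and 131 of 177 of the Sparc H3K27me3 sum. The order of the genes was the same at both ages, with Sparc and Col1a2, and Dmp1 and Ibsp, close to each other, and young and old samples overlapped in all 6. Among the old samples, replicate 2 had the highest ratio for Dmp1 and the lowest for each of the other 5 genes.

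**Figure D5:**
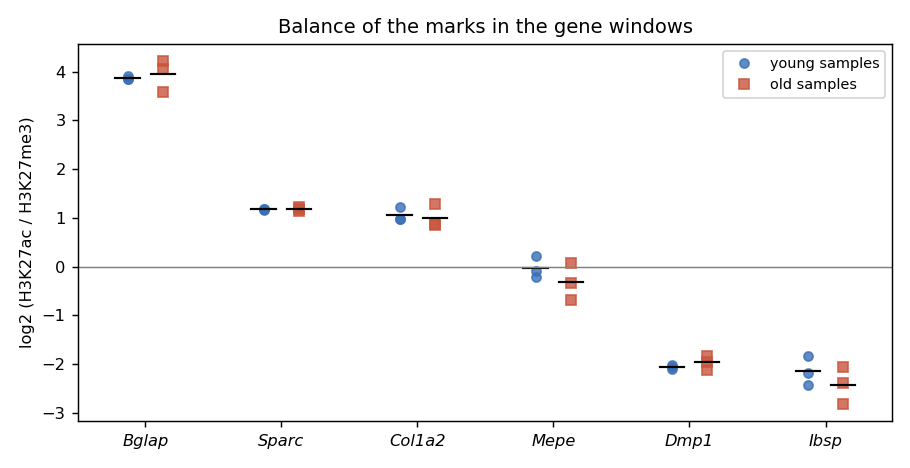
log2 ratio of the summed H3K27ac to the summed H3K27me3 signal of the regions that touch each gene window. The 3 young (blue) and 3 old (red) samples are shown, with the group means as black bars. The ratio ranges from near 4 in Bglap, whose window regions all lie outside the gene body, to below −2 in Ibsp, and young and old samples overlap in every gene.

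Genes that process collagen type I and other matrix genes were counted for comparison, by the same windows. Of 20 enzymes, chaperones and proteases of collagen I processing, 19 had a start site under H3K27ac and 1 under H3K27me3. No window passed for H3K27ac, 7 had an unadjusted p under 0.05, against 12.1% of all windows, and the median log2 fold change was 0.12 beside 0.03 over all windows. The smallest p belonged to Bmp1, which cleaves the procollagen C-propeptide, with 157 ± 14.6 in young and 191 ± 19.0 in old libraries (SD, n = 3, log2 fold change 0.28 ± 0.08, limma adjusted p = 0.0933). Adamts14, which removes the N-propeptide, and Fkbp10, a collagen chaperone, had 0.24 ± 0.09 and 0.19 ± 0.08 (limma adjusted p = 0.229 and 0.269). In H3K27me3, 0 of 19 measured windows passed.

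Of 17 other bone and dentin matrix genes, 12 had a start site under H3K27ac and 5 under H3K27me3. None of the 16 measured for H3K27ac passed, and 1 of the 13 measured for H3K27me3 fell, against 0.315% of all windows. It was Spock1, a proteoglycan of the SPARC family, from 25.2 ± 2.76 to 14.2 ± 2.97 (SD, n = 3, log2 fold change −0.82 ± 0.17, limma adjusted p = 0.0350). This call was not followed under other settings or with a library left out. An unadjusted p under 0.05 was found in 4 of the 13 windows for H3K27me3, against 14.4% of all windows. For H3K27ac it was found in 0 of the 16, against 12.1%. Fn1 and Thbs1, which encode fibronectin and thrombospondin, had H3K27me3 log2 fold changes of 0.51 ± 0.19 and 0.35 ± 0.13 (limma adjusted p = 0.252 and 0.261).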

How the data were processed

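CUT&RUN of H3K27ac and H3K27me3 was measured in 12 libraries, grouped by the sample labels. The authors deposited 1 table per mark with a signal value for each region and library. The submitters' processing notes name Bowtie2, Picard and the builds mm10 and GRCm38, without roles. The caller, filters and duplicate treatment are not given in the sources used here. The publication supplied does not describe these libraries and served for style. The tables are named RPKM, but the deposited signal was 100% whole multiples of 1 step per library (within 0.01 steps), whatever the region's length. Whole reads were therefore recovered by dividing by that step. Library totals further assume a constant divisor of 0.5 kb, which is not stated and which the steps alone do not give. With 1 kb, over 100% of H3K27me3 reads would lie in regions, but smaller divisors were not excluded. If reads were counted in more than 1 bin, counting error would be larger. The design had planned for RPKM, and the log-scale test was kept. The name of each region carries the authors' own old or young state, which was not used. The number of per-sample columns not used was 0.

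Regions were matched to GENCODE vM21 basic genes. Signal was divided by median-of-ratios (RLE) factors and fitted as log2(signal + 0.5) with limma 3.58.1 (R 4.3.3, trend and robust moderation, two-sided), apart for each mark and without a filter. P-values were adjusted by Benjamini-Hochberg over all regions, or all gene windows, of a table. Scaled signal is the deposited signal divided by the RLE factor. Fold changes of regions with few reads depend on the pseudocount and the tool. The H3K27ac region inside Mepe had −0.57, against −0.64 with a pseudocount of 0.1, −0.32 by edgeR and −0.37 by DESeq2. That inside Dmp1 had 0.60, against 0.64, 0.61 and 0.65. All 9 genes and their body regions were named, plus up to 3 other regions per mark with the smallest p and up to 3 with the highest signal, and from each list the called windows and up to 3 with the smallest p. A few further regions were named after their values were seen. The members and lists were chosen with earlier results of these data known. Alternatives were other pseudocounts, scalings, tools (edgeR 4.0.16, DESeq2 1.42.0), windows, and each library left out.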

Additional observations from a re-analysis of the deposited data

How the results depend on the processing

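No member region or window passed under any alternative run: pseudocounts of 0.1 and 1, TMM scaling, signal as deposited, the regions of lowest signal left out, limma without trend and robust moderation, edgeR, DESeq2 (which gave some H3K27me3 regions no adjusted p), a replicate block, other windows, window signal weighted by overlap and each library left out. Depth limits short regions, which held as few as 1 read in a library. Over all regions, 26 were called for H3K27ac (105 as deposited, 96 by edgeR, 6 by DESeq2, 0 by limma without trend and robust moderation, where 2661 had an unadjusted p under 0.05, and 2 to 45 with a library left out) and 137 for H3K27me3 (774, 394, 76, 35, and 10 to 313). As deposited, the median of all regions shifted to −0.12 in H3K27ac and −0.13 in H3K27me3, so signs near 0 rest on the scaling. The cause of the other shifts was not tested.

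With the replicate number as a block, 81 H3K27ac and 309 H3K27me3 regions were called, 0 of them members (5 of 28 and 0 of 11 at an unadjusted p under 0.05). Deviations of same-numbered young and old libraries correlated at 0.066, 0.017 and −0.054 in H3K27ac and 0.025, 0.043 and −0.078 in H3K27me3, and not every library correlated best with its own number, so the numbers were not taken as pairs.

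The median log2 fold change of the H3K27ac member regions moved to −0.28 without regions over the starts of other genes, was −0.053 for the gene bodies alone and −0.24 as deposited, and ranged from −0.19 to −0.089 with a library left out. That of H3K27me3 turned to −0.11 as deposited and −0.012 without the regions of lowest signal, and ranged from −0.048 to 0.041 with a library left out. The median change in balance ranged from −0.12 to 0.022.

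As deposited, the Col1a1 H3K27ac region fell to 0.050 and its window from 0.13 to 0.0078, and signs turned for the H3K27ac regions of Col1a2 (−0.064), G3bp1 beside Sparc (−0.056) and Ppp1r9b beside Col1a1 (−0.0076), the H3K27ac windows of Bglap (−0.076) and Bglap2 (−0.10), the H3K27me3 regions of Ibsp (−0.093), the Mepe 3′ part (−0.020) and Col1a2 (−0.11), and the H3K27me3 windows of Ibsp (−0.052), Mepe (−0.055) and Col1a2 (−0.11). The Dmp1 H3K27ac window became 0.60 at 10 kb and for the gene body alone, and that of Col1a2 0.055 for the gene body. The Sparc H3K27me3 window became 0.041 at 10 kb and without regions over other genes' starts, and its balance −0.20 at 10 kb, where the change in the Dmp1 balance moved from 0.092 to 0.89.

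With a library left out, H3K27ac values changed sign for the Col1a2 region (−0.0079 to 0.098) and the windows of Col1a2 (−0.12 to 0.029), Bglap (−0.016 to 0.098) and Bglap2 (−0.055 to 0.061). H3K27me3 values did so for the Ibsp (−0.16 to 0.16) and Col1a2 (−0.048 to 0.075) regions and the windows of Col1a2 (−0.048 to 0.075), Ibsp (−0.044 to 0.17), Mepe (−0.060 to 0.18) and Bglap (−0.16 to 0.041), as did the change in balance of Col1a2 (−0.19 to 0.025), Sparc (−0.012 to 0.030) and Bglap (−0.055 to 0.26).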
